A study of Homo sapiens with 18 samples.

Results

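Transforming growth factor beta (TGF-beta) signalling was followed through 10 genes in MDA-MB-231, a cell line from a breast cancer of the triple-negative kind. The genes were taken from a list by symbol, 10 of the 62703 Ensembl genes in the files: the ligands TGFB1, TGFB2 and TGFB3, the receptors TGFBR1, TGFBR2 and TGFBR3, the transducer SMAD3, the feedback inhibitors SMAD7 and SKIL, and TGFB1I1, which codes for the TGF-beta-inducible focal adhesion protein Hic-5. TGF-beta is secreted in a latent complex, and once released it brings together a type II receptor (TGFBR2) and a type I receptor (TGFBR1), while TGFBR3 (betaglycan) presents ligand to them. The active receptor phosphorylates SMAD2 and SMAD3, which enter the nucleus with SMAD4 and switch genes on or off. SMAD7 and SKIL are themselves induced by the signal and restrain it. In carcinoma cells the pathway is known for halting division early in the disease and for promoting migration, matrix deposition and the mesenchymal state later.

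The series holds 10 distinct RNA-seq libraries in 5 groups of 2. Cells received lentivirus with a control hairpin (Control shRNA) or with a hairpin that targets EZH2 (shEZH2) or E2F1 (shE2F1) for 24 h and then puromycin at 2 ug/ml for 72 h. Other cells, for which no virus or puromycin is described, received the solvent DMSO or GSK126 at 1 uM for 72 h. GSK126 blocks the catalytic activity of EZH2, the subunit of Polycomb repressive complex PRC2 that methylates lysine 27 of histone H3. E2F1 drives transcription of genes needed to enter S phase. The study's methods list 1 hairpin per target, so that an effect of a hairpin on another transcript cannot be told apart from the loss of its target. The labels do not say whether replicates were separate cultures, and all p-values measure only the spread between these libraries.

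Each hairpin lowered its target. EZH2 stood at 153 and 181 CPM (counts per 1e+06 counts) in control shRNA and at 52.7 and 44.8 CPM in shEZH2. In shE2F1 EZH2 stood at 121 and 137 CPM, below both controls. E2F1 stood at 143 and 138 CPM in control shRNA and at 26.0 and 22.5 CPM in shE2F1, and also at 62.5 and 32.3 CPM in shEZH2. Libraries held between 13198932 (shEZH2 replicate 1) and 20055550 counts. All 4 markers of mesenchymal breast cancer lines were above 1 TPM in all libraries, but their summed level was 4250 to 4380 TPM in control shRNA, 2200 to 2380 TPM in shEZH2 and 3530 to 3830 TPM in shE2F1, with VIM at 2739 and 2826 TPM in control shRNA and 1357 and 1185 TPM in shEZH2. AXL and MSN were also lower in shEZH2. CD44 went the other way, at 446 and 448 TPM in control shRNA, 489 and 522 TPM in shEZH2 and 588 and 659 TPM in shE2F1. The 6 luminal epithelial markers summed to 2830 to 3310 TPM in control shRNA and 2340 to 2490 TPM in shEZH2. Both shEZH2 libraries lay below both controls for KRT8, KRT18, KRT19 and GATA3, and above both for CDH1 and EPCAM. Of the receptors lacking in triple-negative cells PGR was at 0 and ESR1 under 1 TPM, while ERBB2 stood at 20 to 35.6 TPM. Of the fibroblast markers DCN was at 0 and COL1A2 under 1 TPM throughout, and the summed level of the 5 fibroblast markers was 10.5 to 12.6 TPM in control shRNA, 28.5 to 38.8 TPM in shEZH2 and 13.4 to 13.9 TPM in shE2F1. Of the 4 leukocyte markers CD3E was at 0 and PTPRC under 1 TPM, but their sum was 79.1 to 81.4 TPM in control shRNA, 31.5 to 38.8 TPM in shEZH2 and 147 to 158 TPM in shE2F1, nearly all of it CD68, a lysosomal protein that many cell types make. Of the 4 endothelial markers CDH5 and PECAM1 were under 1 TPM, and the sum was 1.83 to 1.94 TPM in control shRNA, 2.99 to 3.62 TPM in shEZH2 and 3.24 to 4.28 TPM in shE2F1. The part of these marker shifts in the results was not tested.

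Promoter sequences are shown for the 5 genes on which the knockdown results turn most, the 3 receptors, SMAD7 and TGFB1I1. PRC2 is known to sit mainly at promoters rich in CpG dinucleotides, so each CpG is in capitals. Each window runs from 250 bases before to 50 bases after a RefSeq start site, 5′ to 3′ on the strand of the gene, and is the first window that RefSeq lists for the gene on GRCh38.p14. The windows are chr9:99104863-99105162 (plus strand) for TGFBR1, chr3:30606106-30606405 (plus) for TGFBR2, chr1:91886102-91886401 (minus) for TGFBR3, chr18:48950916-48951215 (minus) for SMAD7 and chr16:31471902-31472201 (plus) for TGFB1I1.
TGFBR1: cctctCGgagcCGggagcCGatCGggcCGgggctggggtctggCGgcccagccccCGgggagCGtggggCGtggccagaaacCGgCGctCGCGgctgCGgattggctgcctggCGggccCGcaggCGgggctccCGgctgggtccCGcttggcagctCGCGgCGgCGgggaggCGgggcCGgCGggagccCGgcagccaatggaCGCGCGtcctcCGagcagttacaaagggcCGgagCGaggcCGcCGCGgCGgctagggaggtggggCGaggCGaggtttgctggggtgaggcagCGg
TGFBR2: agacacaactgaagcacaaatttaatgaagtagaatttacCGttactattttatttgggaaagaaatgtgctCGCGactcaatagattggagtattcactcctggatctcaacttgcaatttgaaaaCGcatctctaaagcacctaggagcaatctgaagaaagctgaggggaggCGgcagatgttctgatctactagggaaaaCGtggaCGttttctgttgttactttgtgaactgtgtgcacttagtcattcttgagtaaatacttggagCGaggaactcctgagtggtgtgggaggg
TGFBR3: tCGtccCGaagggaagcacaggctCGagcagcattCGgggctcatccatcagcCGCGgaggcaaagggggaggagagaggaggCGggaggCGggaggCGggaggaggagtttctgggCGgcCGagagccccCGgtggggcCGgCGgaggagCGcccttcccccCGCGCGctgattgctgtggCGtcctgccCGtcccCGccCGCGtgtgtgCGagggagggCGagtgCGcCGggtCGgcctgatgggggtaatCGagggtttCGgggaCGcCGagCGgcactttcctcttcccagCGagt
SMAD7: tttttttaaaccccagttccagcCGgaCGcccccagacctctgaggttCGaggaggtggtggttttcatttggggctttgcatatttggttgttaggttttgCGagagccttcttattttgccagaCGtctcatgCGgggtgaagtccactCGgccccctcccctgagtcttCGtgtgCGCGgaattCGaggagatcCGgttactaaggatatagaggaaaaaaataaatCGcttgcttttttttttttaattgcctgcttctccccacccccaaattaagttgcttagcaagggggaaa
TGFB1I1: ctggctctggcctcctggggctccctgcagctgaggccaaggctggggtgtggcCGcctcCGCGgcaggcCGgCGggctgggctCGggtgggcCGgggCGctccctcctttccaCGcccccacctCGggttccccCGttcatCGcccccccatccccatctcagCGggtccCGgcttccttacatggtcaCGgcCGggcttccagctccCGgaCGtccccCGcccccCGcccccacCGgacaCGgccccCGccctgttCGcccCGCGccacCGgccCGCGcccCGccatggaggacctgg

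These windows held 40 CpGs for TGFBR1, 8 for TGFBR2, 34 for TGFBR3, 13 for SMAD7 and 30 for TGFB1I1, against a median of 14 over 35116 RefSeq promoter windows. TGFBR2 and SMAD7 thus lay below the median, though above the lower quartile of 4, and the other 3 genes above the median. Of all windows 39.3% held fewer CpGs than that of TGFBR2 and 92.4% fewer than that of TGFBR1. A further listed window of TGFBR2, chr3:30606351-30606650, held 23. It contains the annotated gene start at 30606601, which the window printed for TGFBR2 does not. Of the other genes, SKIL held 52, SMAD3 44, TGFB1 28, TGFB2 14 and TGFB3 10 in the first listed window, so that 6 of the 10 lay above the median. The palindromic SMAD-binding letters GTCTAGAC, searched on both strands, were in 0 of the 27 listed windows of these genes and in 0.202% of all windows. The shorter SMAD letters CAGACA were in 4 of the 27, in windows of TGFB2, TGFBR1 (2 windows) and SMAD3, against 16.9% of all windows. The E2F letters TTTCCCGC, TTTCGCGC, TTTGCCGC and TTTGGCGC were in 0 of the 27 and in 3.31% of all windows.

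The cells transcribed 9 of the 10 genes at clear levels, and TGFB3 was near the limit of detection. Levels of different genes are compared in TPM, an abundance unit that takes account of transcript length. In control shRNA the order of mean TPM was TGFB1 at 63.9 ± 12.7 (SD, n = 2), TGFBR2 at 54.9 ± 1.51, SMAD3 at 50.9 ± 9.03, TGFB2 at 42.5 ± 2.12, TGFB1I1 at 35.4 ± 5.85, TGFBR1 at 15.4 ± 2.16, TGFBR3 at 7.90 ± 1.08, SKIL at 6.87 ± 1.36, SMAD7 at 4.42 ± 0.00707 and TGFB3 at 0.415 ± 0.233. Among neighbours in this order, the libraries of TGFB1 and TGFBR2, of TGFBR2 and SMAD3, and of TGFBR3 and SKIL overlapped. In shEZH2 TGFBR2 stood first, at 127.0 ± 8.12 TPM, apart from SMAD3 next to it at 61.2 ± 5.96 TPM, and TGFB1I1 stood next to last at 8.30 ± 0.537 TPM. In shE2F1, DMSO and GSK126 TGFB1 was first by mean, at 65.2 ± 1.37, 77.2 ± 3.71 and 77.5 ± 10.2 TPM, and in each of these 3 groups its libraries were apart from those of the next gene. In GSK126, however, its libraries at 84.8 and 70.3 TPM overlapped those of TGFB2 at 75.4 and 41.4 TPM.

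**Figure D1:**
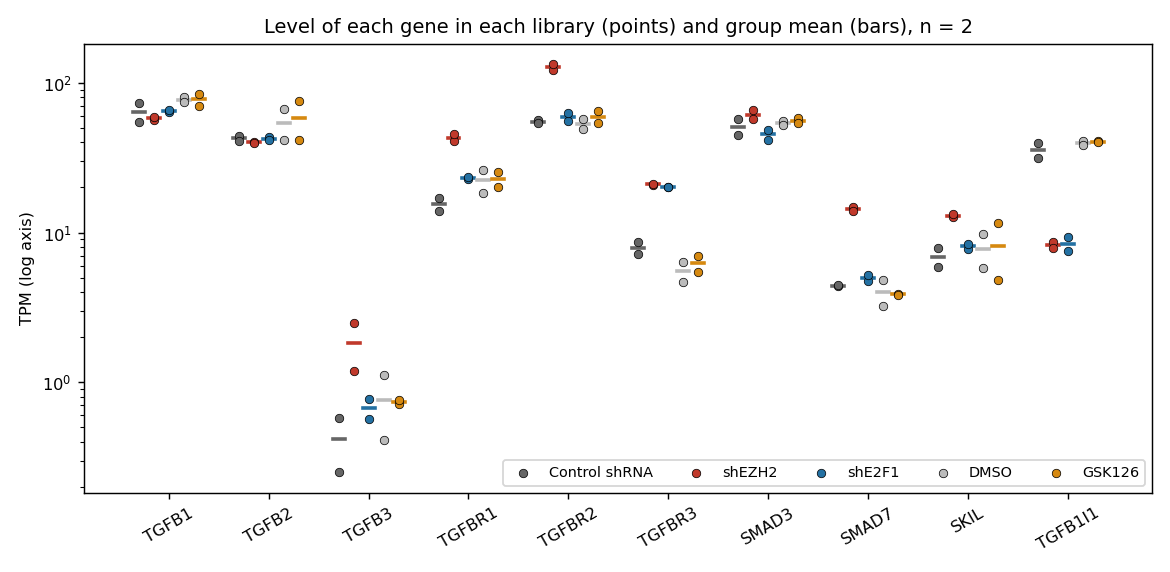
TPM on a log axis for each of the 10 genes (x axis) in each library (points, coloured by group), with group means of n = 2 as bars. TGFBR1, TGFBR2, SMAD7 and SKIL are highest in both shEZH2 libraries, TGFBR3 is high in shEZH2 and shE2F1, and TGFB1I1 is low in both knockdowns and near 40 TPM in DMSO and GSK126.

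With the EZH2 hairpin, transcripts of the receptors TGFBR1 and TGFBR3 and of SMAD7 rose and TGFB1I1 fell, while neither abundant ligand passed the test. In shEZH2 against control shRNA 5 of the 10 genes passed the test (edgeR, adjusted p under 0.01 over all genes and more than 2-fold), 4 higher (TGFB3, TGFBR1, TGFBR3, SMAD7) and 1 lower (TGFB1I1). Of all 15373 genes tested, 18.2% passed, 7.52% higher and 10.7% lower. The median log2 change of the 10 genes was 0.88, against -0.02 over all genes. With no overlap between the libraries of the 2 groups, 6 genes were higher and 3 lower, where 38.8% of all genes were higher and 38.8% lower in that sense.

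With the E2F1 hairpin TGFBR3 rose and TGFB1I1 fell, and no ligand, signalling receptor or feedback gene passed. In shE2F1 against control shRNA 2 of the 10 genes passed, where 11.6% of all genes did, and the median log2 change was -0.02 for the 10 genes and -0.00 for all genes. As these are bulk libraries, a change in the share of cells of one kind and a change in RNA per cell cannot be told apart. Both knockdown comparisons use the same 2 control libraries. In the direct comparison of shEZH2 with shE2F1, TGFBR2 and SMAD7 passed, both higher in shEZH2. In that comparison 23.3% of all genes passed, and 10.4% were higher. With adjusted p under 0.05 and no fold requirement, 8 of the 10 genes passed in shEZH2 (55.6% of all genes), 5 in shE2F1 (44.7%) and 6 between the knockdowns (60.3%). GSK126 against DMSO gave 0 calls among the 10 genes and among all 14632 genes tested (0%) in the main fit, which does not use the replicate number. With the replicate number as a block 68 genes passed, and with DESeq2 10 did, none of them among the 10 genes followed here.

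**Figure D2:**
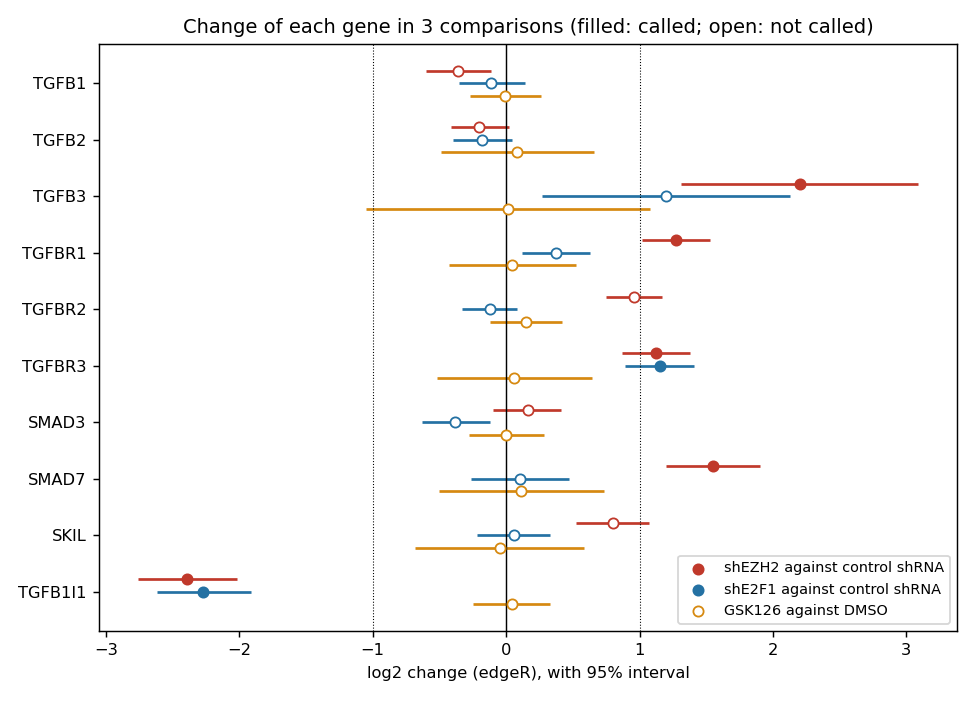
The log2 change from edgeR (x axis) of each gene (rows) with its 95% interval in shEZH2 and shE2F1 against control shRNA and in GSK126 against DMSO; filled points passed the test and dotted lines mark 2-fold. The receptors, SMAD7 and SKIL lie to the right in shEZH2, TGFB1I1 lies near -2.3 in both knockdowns, and all GSK126 points lie between -0.05 and 0.15.

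TGFB1 (ENSG00000105329, GRCh38 chromosome 19, 41301587 to 41353922, minus strand), the main ligand of this family in most tissues, was read at 121 and 100 CPM in control shRNA. It stood at 81.5 and 92.3 CPM in shEZH2 and at 104 and 102 CPM in shE2F1. Both shEZH2 libraries lay below both controls, but the log2 change, -0.36 ± 0.11 (SE), had an edgeR adjusted p of 0.0182 and did not pass. In shE2F1 the change was -0.11 ± 0.11 (SE), with overlapping libraries. Exons of HNRNPUL1, on the opposite strand, overlap those of TGFB1 and were read at 6202 to 10497 counts per library against 1082 to 2490 for TGFB1, and whether counting used the strand is not stated in the sources used here.

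TGFB2 (ENSG00000092969, chromosome 1, 218345336 to 218444619, plus strand), a ligand that depends on betaglycan for efficient binding, was the other abundant ligand. It was read at 141 and 119.7 CPM in control shRNA, 115 and 114 CPM in shEZH2, and 117 and 113 CPM in shE2F1. Treated libraries lay just below the lower control in both knockdowns. The log2 changes were -0.20 ± 0.10 (SE) and -0.18 ± 0.10 (SE), and the adjusted p from edgeR were 0.118 and 0.156. TGFB2-AS1, on the opposite strand, and TGFB2-OT1 share sequence with TGFB2 but were read at no more than 49 and 100.1 counts.

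TGFB3 (ENSG00000119699, chromosome 14, 75958097 to 75983011, minus strand), the ligand of late wound repair and palate formation, was read at only 10 to 53 counts per library. It stood at 0.530 and 0.600 CPM in control shRNA, 2.19 and 3.05 CPM in shEZH2, and 1.49 and 1.13 CPM in shE2F1. Both shEZH2 libraries lay above all others of the 6. The log2 change in shEZH2 was 2.20 ± 0.40 (SE, edgeR adjusted p 0.00089), a 4.59-fold rise, but the call rests on few reads. It was lost without shEZH2 replicate 2 (1.95, edgeR adjusted p 0.0115) and with an offset for effective gene length (2.08, edgeR adjusted p 0.0128). Its change in shE2F1, 1.20 ± 0.42 (SE), did not pass (edgeR adjusted p 0.0382). Even in shEZH2 TGFB3 made up no more than 2.47% of the summed ligand TPM, where TGFB1 made up 57.7% and 58.1%.

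TGFBR1 (ENSG00000106799, chromosome 9, 99104038 to 99154192, plus strand), the type I receptor kinase, was read at 73.5 and 61.5 CPM in control shRNA and at 150.3 and 179 CPM in shEZH2. The 2 groups were far apart, and the rise of 1.27 ± 0.12 (SE) on the log2 scale, or 2.41-fold, had an edgeR adjusted p of 1.04e-05. In shE2F1 TGFBR1 stood at 87.5 and 88.5 CPM, above both controls, its change being 0.37 ± 0.12 (SE) and its edgeR adjusted p of 0.0226 that does not pass. Between the knockdowns it was 0.90 ± 0.11 (SE) higher in shEZH2 on the log2 scale (edgeR adjusted p 5.88e-05), under the 2-fold requirement.

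TGFBR2 (ENSG00000163513, chromosome 3, 30606601 to 30694142, plus strand), the type II receptor that binds ligand and activates TGFBR1, was the receptor with the highest level. It was read at 171 and 173 CPM in control shRNA, 315 and 361 CPM in shEZH2, and 153 and 164 CPM in shE2F1. Levels in shEZH2 were 1.95-fold those of the controls, or 0.96 ± 0.09 (SE) on the log2 scale (edgeR adjusted p 1.61e-05), just under the 2-fold requirement. It is therefore not among the 5 genes called, and without shEZH2 replicate 1 (1.05) or with an offset for effective gene length (1.03) it passed. In shE2F1 its change was -0.12 ± 0.09 (SE, edgeR adjusted p 0.313). The direct comparison placed TGFBR2 1.09 ± 0.09 (SE) higher in shEZH2 than in shE2F1 (edgeR adjusted p 4.27e-06), which passes. That difference did not pass without shEZH2 replicate 2 (1.00) or after correction for GC content and length (0.88).

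TGFBR3 (ENSG00000069702, chromosome 1, 91680343 to 91906335, minus strand), the co-receptor betaglycan, rose in both knockdowns. It was read at 32.5 and 30.5 CPM in control shRNA, 63.1 and 75.6 CPM in shEZH2, and 74.4 and 66.1 CPM in shE2F1. The libraries of the 2 knockdowns overlapped and all 4 lay above both controls. The log2 changes were 1.12 ± 0.12 (SE, edgeR adjusted p 2.37e-05) and 1.15 ± 0.12 (SE, edgeR adjusted p 2.86e-05). The difference between the knockdowns was -0.02 on the log2 scale, with a 95% interval from -0.27 to 0.23. In the drug experiment TGFBR3 stood at 23.7 and 17.9 CPM (DMSO) and at 26.3 and 17.3 CPM (GSK126), below all 6 transduced libraries, but the experiments also differ in the virus and puromycin described.

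SMAD3 (ENSG00000166949, chromosome 15, 67063763 to 67195173, plus strand), the transducer that binds DNA, changed little beside the receptors. It was read at 187 and 167 CPM in control shRNA, 179.6 and 219 CPM in shEZH2, and 129 and 146 CPM in shE2F1. Its shEZH2 libraries overlapped the controls, with a log2 change of 0.16 ± 0.11 (SE, edgeR adjusted p 0.264). In shE2F1 both libraries lay below both controls, with a change of -0.38 ± 0.11 (SE) and an edgeR adjusted p of 0.0216 that does not pass.

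SMAD7 (ENSG00000101665, chromosome 18, 48919853 to 48950965, minus strand), which blocks the type I receptor and brings ubiquitin ligases to it, rose in shEZH2. It was read at 8.58 and 6.90 CPM in control shRNA, 22 and 23.8 CPM in shEZH2, and 8.29 and 8.47 CPM in shE2F1. The shEZH2 libraries lay far above the other 4, which overlapped. Its rise of 1.55 ± 0.16 (SE) on the log2 scale, or 2.93-fold, had an edgeR adjusted p of 2.15e-05. In shE2F1 the change was 0.10 ± 0.17 (SE, edgeR adjusted p 0.647), and the direct difference between the knockdowns was 1.45 ± 0.16 (SE, edgeR adjusted p 1.92e-05), which passes.

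SKIL (ENSG00000136603, chromosome 3, 170357342 to 170396835, plus strand) codes for SnoN, a corepressor that binds SMADs. SKIL was read at 18.9 and 21.4 CPM in control shRNA, 33.3 and 37.2 CPM in shEZH2, and 21.8 and 20.3 CPM in shE2F1. Both shEZH2 libraries lay above the other 4. The log2 change of 0.80 ± 0.12 (SE, edgeR adjusted p 0.000313) stayed under the 2-fold requirement, and in shE2F1 the change was 0.06 ± 0.13 (SE, edgeR adjusted p 0.738).

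TGFB1I1 (ENSG00000140682, chromosome 16, 31471585 to 31477960, plus strand), an adaptor at focal adhesions that also acts as a nuclear receptor coactivator, fell in both knockdowns. Control shRNA libraries held it at 41.7 and 37.1 CPM, with 8.67 and 6.62 CPM in shEZH2, and 8.82 and 7.61 CPM in shE2F1. All 4 knockdown libraries lay under 9 CPM and all 6 other libraries over 37 CPM, the DMSO pair being at 40.2 and 43.8 CPM and the GSK126 pair at 41.8 and 44.5 CPM. TGFB1I1 fell by 2.39 ± 0.17 (SE) on the log2 scale in shEZH2, or 5.24-fold, and by 2.27 ± 0.16 (SE) in shE2F1, or 4.81-fold, with edgeR adjusted p of 2.56e-06 and 2.86e-06. The difference between the knockdowns was -0.12 on the log2 scale, with a 95% interval from -0.51 to 0.27.

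The balance between parts of the pathway moved accordingly in shEZH2, as a description of TPM with no test. The sum of TGFBR1 and TGFBR2 was 0.621 and 0.704 times the summed ligands in control shRNA, 1.65 and 1.76 times in shEZH2, and 0.723 and 0.799 times in shE2F1. In DMSO and GSK126 this ratio lay between 0.561 and 0.655. Only in the shEZH2 libraries of these 10 did receptor transcripts exceed ligand transcripts. These TPM are not corrected for GC content, with which changes in shEZH2 moved (next paragraph). Transcripts of TGFBR1 (38.8% GC) and TGFBR2 (42.7%) are GC-poor and those of TGFB1 (63.6%) GC-rich. How much of the shift in this ratio follows GC content was not tested. The ratio of SMAD3 to SMAD7 was 13.0 and 10.1 in control shRNA, 3.81 and 4.66 in shEZH2, and 8.74 and 9.33 in shE2F1. The SMAD3 to SMAD7 ratio was 17.0 and 10.8 in DMSO and 14.9 and 14.0 in GSK126, so that shEZH2 held the lowest values of the 5 groups.

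Changes in shEZH2 moved with the GC content of transcripts across all genes. With all genes tested in 5 equal bins, the median log2 change was 0.22 in the bin lowest in GC and -0.42 in the highest, while in shE2F1 the 5 medians lay between -0.04 and 0.02. The receptors and SKIL are GC-poor, at 38.8% for TGFBR1, 42.7% for TGFBR2, 41.8% for TGFBR3 and 35.8% for SKIL, and TGFB1 (63.6%), TGFB1I1 (59.1%) and SMAD7 (57.0%) are GC-rich. After each library was corrected for GC content and length, TGFBR1 stood at 0.98, TGFBR2 at 0.75 and TGFBR3 at 0.87 in shEZH2, all still with edgeR adjusted p under 0.01 but under 2-fold. SMAD7 then stood at 1.88, TGFB3 at 2.33 and TGFB1I1 at -2.09, and these 3 still passed. SKIL stood at 0.43 (edgeR adjusted p 0.00957), and TGFB1 turned from -0.36 to 0.17 (edgeR adjusted p 0.156), and no direction is given for TGFB1. TGFB2 stood at -0.42 (edgeR adjusted p 0.00403).

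**Figure D3:**
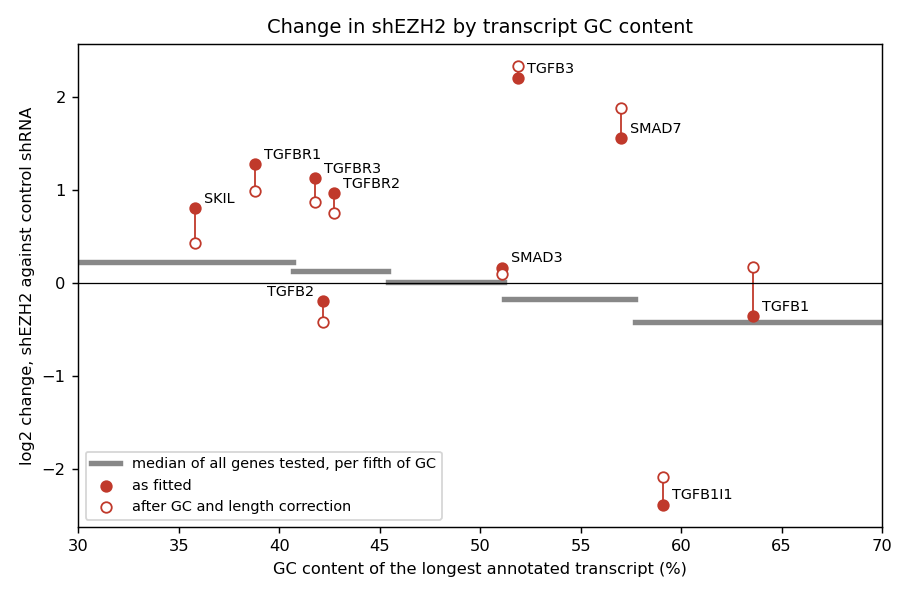
The log2 change in shEZH2 against control shRNA (y axis) of each gene by the GC content of its longest annotated transcript in percent (x axis), as fitted (filled) and after correction for GC content and length (open); grey bars are medians of all genes tested in each of 5 equal bins of GC content. The bars fall from 0.22 to -0.42, SMAD7 and TGFB3 lie far above them, TGFB1I1 far below, and TGFB1 crosses 0 with the correction.

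GSK126 was set against DMSO to ask whether blocking the catalytic activity of EZH2 moved the same genes. None of the 10 genes passed with edgeR, with DESeq2 or at an unadjusted p under 0.05, where the lowest was 0.229 for TGFBR2 and 3.94% of all genes were under 0.05. The log2 changes lay between -0.05 (SKIL) and 0.15 (TGFBR2), and all 10 edgeR adjusted p were 1. The intervals were narrow for TGFB1 (-0.27 to 0.26), TGFBR2 (-0.12 to 0.42), SMAD3 (-0.28 to 0.28) and TGFB1I1 (-0.25 to 0.33), and wide for TGFB3 (-1.05 to 1.08), SMAD7 (-0.50 to 0.73) and SKIL (-0.68 to 0.58). DMSO libraries held EZH2 itself at 123 and 127 CPM and GSK126 libraries at 133 and 142 CPM, and methylation of histones was not measured in these libraries.

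For most of the 10 genes the replicate libraries of the drug experiment differed more than treated from untreated. TGFBR1 was read at 104 and 74.7 CPM in DMSO and at 102 and 82.2 CPM in GSK126, with the first replicate higher in each group. TGFB2 was read at 200.4 and 139 CPM in DMSO and at 214 and 147 CPM in GSK126, in the same order. For 9 of the 10 genes the replicates differed in the same direction in DMSO and in GSK126, and for 8 the difference between DMSO replicates was larger than either difference between GSK126 and DMSO of the same number. Within the replicate number, 3 genes (TGFB2, TGFBR2 and TGFB1I1) were higher in GSK126 both times, by 0.10 and 0.07, 0.20 and 0.10, and 0.06 and 0.02 on the log2 scale, and 0 genes were lower both times. For SMAD7 the DMSO pair held 4.66 and 7.52 CPM and the GSK126 pair 6.39 and 6.72 CPM, so that it was 0.45 higher in the first replicate and 0.16 lower in the second on the log2 scale.

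**Figure D4:**
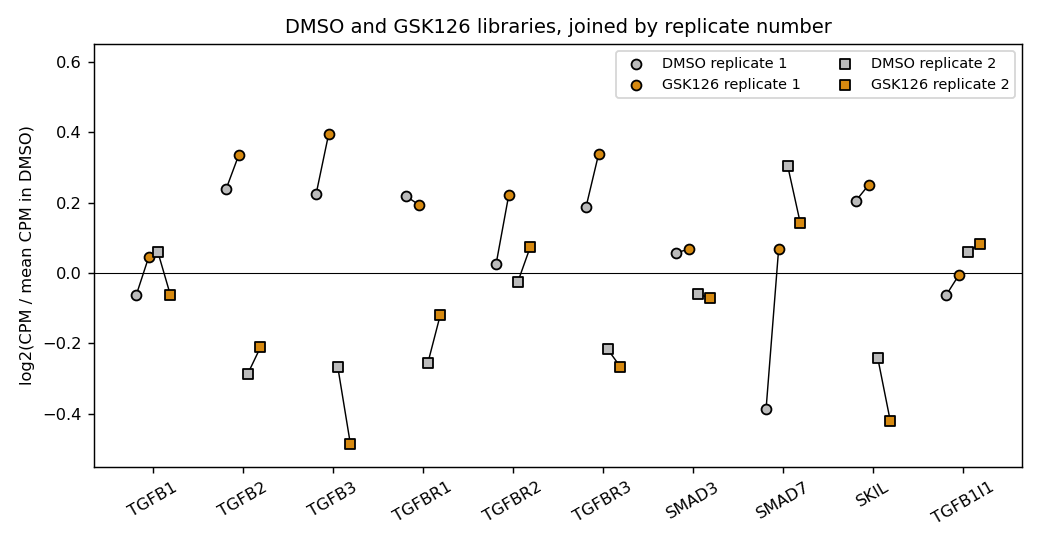
The log2 of CPM over the mean CPM in DMSO (y axis) for each gene (x axis) in the DMSO (grey) and GSK126 (orange) libraries, with circles for replicate 1 and squares for replicate 2 and lines joining libraries of the same number. For most genes the circles and squares are farther apart than the ends of a line.

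The effect of shEZH2 differed from that of GSK126 for 4 of the 10 genes, tested as the difference between the 2 changes in a fit of all 10 libraries, in which 13.8% of all genes passed and 36.6% had an adjusted p under 0.05. Tested this way, the difference was 1.24 ± 0.23 (SE) for TGFBR1, 1.07 ± 0.27 (SE) for TGFBR3, 1.45 ± 0.30 (SE) for SMAD7 and -2.42 ± 0.21 (SE) for TGFB1I1 on the log2 scale. Their edgeR adjusted p were 0.00158, 0.00775, 0.00267 and 1.66e-05. TGFBR2 differed by 0.83 ± 0.15 (SE, edgeR adjusted p 0.00134), under the 2-fold requirement, and TGFB3 by 2.20 ± 0.60 (SE, edgeR adjusted p 0.0128). The call of TGFBR1 was lost without control shRNA replicate 2 (1.11), shEZH2 replicate 2 (1.11) or DMSO replicate 1 (0.98), and that of SMAD7 without control shRNA replicate 2 (1.3), shEZH2 replicate 2 (1.39) or DMSO replicate 2 (1.07). The call of TGFBR3 was lost without any 1 of 7 libraries, at 0.80 to 1.11, and TGFB1I1 kept its call without each. With the GC and length correction TGFBR1 (0.95) and TGFBR3 (0.84) were under 2-fold, SMAD7 (1.80) and TGFB1I1 (-2.11) passed, and TGFB3 passed too (2.37, edgeR adjusted p 0.00842). The experiments also differ in virus, puromycin and controls, and these cannot be told apart from hairpin against inhibitor.

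A wider set of 82 pathway genes in 8 lists, 73 of them tested in the knockdowns, was described by counts. In shEZH2 19 rose and 12 fell, where 7.52% and 10.7% of all genes did, and in shE2F1 11 rose and 15 fell, where 5.60% and 5.96% of all genes did. The median log2 change was 0.43 in shEZH2 and -0.06 in shE2F1, against -0.02 and -0.00 over all genes. The lists were chosen with earlier results of these data known, so nothing is called particular to them.

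Genes that bind, store or release latent TGF-beta went both ways in shEZH2. Of 11 tested, 4 rose and 2 fell, where 7.52% and 10.7% of all genes did. LTBP1, which anchors latent TGF-beta in the matrix, rose from 14.5 and 13.9 CPM to 61.9 and 70.5 CPM (2.21 ± 0.12 SE on the log2 scale), ITGAV, the integrin subunit that pulls the complex open, rose by 1.29 ± 0.10 (SE), and THBS1, a matrix protein that can activate it, by 1.07 ± 0.11 (SE). LTBP3 and LTBP4, of the same family as LTBP1, fell by 1.61 ± 0.23 (SE) and 1.63 ± 0.14 (SE). In shE2F1 2 rose and 3 fell, where 5.6% and 5.96% of all genes did. FBN1, the fibrillin to which LTBPs attach, rose by 1.07 ± 0.12 (SE) in shE2F1. FURIN, the protease that cleaves the TGF-beta precursor, fell by 1.41 ± 0.09 (SE) and LTBP2 by 1.16 ± 0.17 (SE). After the GC correction 3 of the list remained called in shEZH2 in place of 6, LTBP1 higher and LTBP3 and LTBP4 lower. ITGAV (0.86) and THBS1 (0.80) were then under 2-fold. THBS1 was also under it without control shRNA replicate 1 (0.97) or shEZH2 replicate 2 (0.98), FBN1 without control shRNA replicate 2 (0.94) and LTBP2 without shE2F1 replicate 1 (-0.96).

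Of 22 genes known to be induced by TGF-beta, 10 rose and 3 fell in shEZH2, with a median log2 change of 0.93. Over all genes 7.52% rose and 10.7% fell in that comparison. In shE2F1 2 of the 22 rose and 8 fell, with a median of -0.48, where 5.6% and 5.96% of all genes did. CCN2, a matrix growth factor, rose from 246 and 302 CPM to 1019 and 1454 CPM in shEZH2. In shE2F1 CCN2 fell to 110 and 119 CPM, and that fall passed too. TNC, the matrix protein tenascin C, was read at 14.1 and 23.0 CPM in control shRNA, 80.9 and 90.4 CPM in shEZH2 and 1.77 and 1.89 CPM in shE2F1, a rise by 2.20 ± 0.18 (SE) in shEZH2 and a fall by 3.34 ± 0.25 (SE) in shE2F1.

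Of that list IL11, TAGLN and KLF10 fell in both knockdowns. IL11, a cytokine of bone metastasis, was read at 147 and 134 CPM in control shRNA, 17.5 and 15.8 CPM in shEZH2 and 11 and 10.8 CPM in shE2F1. TAGLN, an actin-binding protein of smooth muscle, was read at 11.9 and 14.2 CPM, 1.81 and 2.07 CPM, and 2.83 and 1.83 CPM in the same order. KLF10, an early response gene, fell by 1.03 ± 0.17 (SE) in shEZH2 (-0.99 without control shRNA replicate 2 and -0.86 without shEZH2 replicate 2, under 2-fold). It also passed as lower in shE2F1, from 69.0 and 72.9 CPM in control shRNA to 40.7 and 28.2 CPM. JUNB, a subunit of AP-1, rose in both knockdowns, by 1.26 ± 0.16 (SE) in shEZH2 and 1.25 ± 0.16 (SE) in shE2F1. COL1A1, named after its values were seen because it is also among the fibroblast markers above, rose in shEZH2 from 20.3 and 17.2 CPM to 43.5 and 62.9 CPM, and the part of that marker list in these counts was not tested. Of the 4 genes that TGF-beta represses in epithelial cells, ID1 and ID3, inhibitors of differentiation that BMP signalling switches on, fell in shEZH2 by 3.46 ± 0.18 (SE) and 2.44 ± 0.25 (SE), and in shE2F1 ID1 fell by 1.24 ± 0.16 (SE). ID2, of the same family, rose in shE2F1 from 1.22 and 0.78 CPM to 4.27 and 2.80 CPM (1.80 ± 0.41 SE).

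Genes of neighbouring branches were described by counts too. Of 7 other ligands tested, 1 rose and 2 fell in shEZH2, and of 9 other receptors 1 rose and 2 fell. Of 6 other SMADs and SMAD anchor genes 2 rose and 0 fell, and of 11 other inhibitors 1 rose and 1 fell. Over all genes 7.52% rose and 10.7% fell in shEZH2. The lists are short, and nothing is read from these counts about a branch. BMP4, a ligand of the BMP branch, was read at 292 and 172 CPM in control shRNA, 64.5 and 48.6 CPM in shEZH2 and 518 and 425 CPM in shE2F1. It fell by 2.05 ± 0.23 (SE) in shEZH2 and rose by 1.01 ± 0.21 (SE) in shE2F1, where it did not pass without control shRNA replicate 2 (0.69), without shE2F1 replicate 1 (0.86), with the GC correction (0.96) or with DESeq2 (adjusted p 0.0186). Among the 9 other receptors tested, ACVR2B, an activin receptor, rose by 2.39 ± 0.21 (SE) in shEZH2, and BMPR1A, a type I BMP receptor, fell by 1.44 ± 0.12 (SE). ZFYVE9, the anchor that presents SMAD2 and SMAD3 to the receptor, rose by 1.24 ± 0.10 (SE) in shEZH2. Of the other inhibitors SMURF2, a ubiquitin ligase that works with SMAD7, rose by 1.06 ± 0.11 (SE) in shEZH2 and SKI, the paralog of SKIL, fell by 1.03 ± 0.11 (SE). With the GC correction ZFYVE9 (0.97), SMURF2 (0.82) and SKI (-0.75) were under 2-fold, as were SMURF2 without control shRNA replicate 1 (0.93) and SKI without shEZH2 replicate 2 (-0.90).

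In shE2F1 4 of the 7 other ligands tested rose and 1 fell, and of 3 antagonists 1 rose. Of 11 other inhibitors 0 rose and 1 fell. Over all genes 5.6% rose and 5.96% fell in that comparison. Some called genes belong to the activin branch, which was not a list of its own. The antagonist FSTL3 and the activin receptors ACVR1B, ACVR1C, ACVR2A and ACVR2B were not called. FST, which codes for follistatin and traps activin, rose from 31.3 and 34.3 CPM to 334 and 287 CPM (3.23 ± 0.22 SE on the log2 scale), INHBB, an activin subunit, rose by 1.29 ± 0.16 (SE), and GDF11, a related ligand, fell by 1.06 ± 0.18 (SE). GDF11 did not pass without control shRNA replicate 2 (-0.93) or shE2F1 replicate 1 (-0.99). INHBA, another activin subunit, named after its values were seen, also passed in shE2F1. INHBA was read at 1.80 and 4.02 CPM in control shRNA, 3.54 and 2.77 CPM in shEZH2 and 8.82 and 10.2 CPM in shE2F1. PMEPA1, an inhibitor that sequesters SMADs and is induced by them, fell in shE2F1 from 46.3 and 43.6 CPM to 10.9 and 9.06 CPM (-2.18 ± 0.12 SE).

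Under GSK126 0 of the 68 genes tested passed in the main edgeR fit, which does not use the replicate number. There were 5 genes, singled out after their values were seen, that were higher. INHBA, the subunit of activin A, stood at 5.21 and 4.35 CPM with DMSO and 16.1 and 17.2 CPM with GSK126 (1.79 ± 0.17 SE, edgeR unadjusted p 3.33e-05 and adjusted p 0.487). DESeq2 called it, with an adjusted p of 1.06e-05, as did edgeR when any 1 of the 4 libraries was left out (1.67 to 1.95). TNC stood at 13.7 and 17.4 CPM with DMSO and 30.5 and 41.9 CPM with GSK126 (DESeq2 adjusted p 0.00095, called), and FST at 64.5 and 55 CPM and 123 and 117 CPM. PMEPA1 was read at 55.4 and 64.7 CPM and 90.7 and 97.8 CPM, and THBS1 at 1045 and 1103 CPM and 1486 and 1499 CPM. With the replicate number as a block, edgeR called INHBA (1.79), TNC (1.21) and FST (1.00) of these 5. It then also called ADAM12 (1.25) and ITGB8 (1.14) of the pathway lists. The 4 libraries of each of the 5 genes singled out lay apart by treatment. Those genes were chosen with their values known, so their separation carries no weight. Among the 10 genes above 1 lay apart with GSK126 higher, as did 15.2% of all genes tested.

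**Figure D5:**
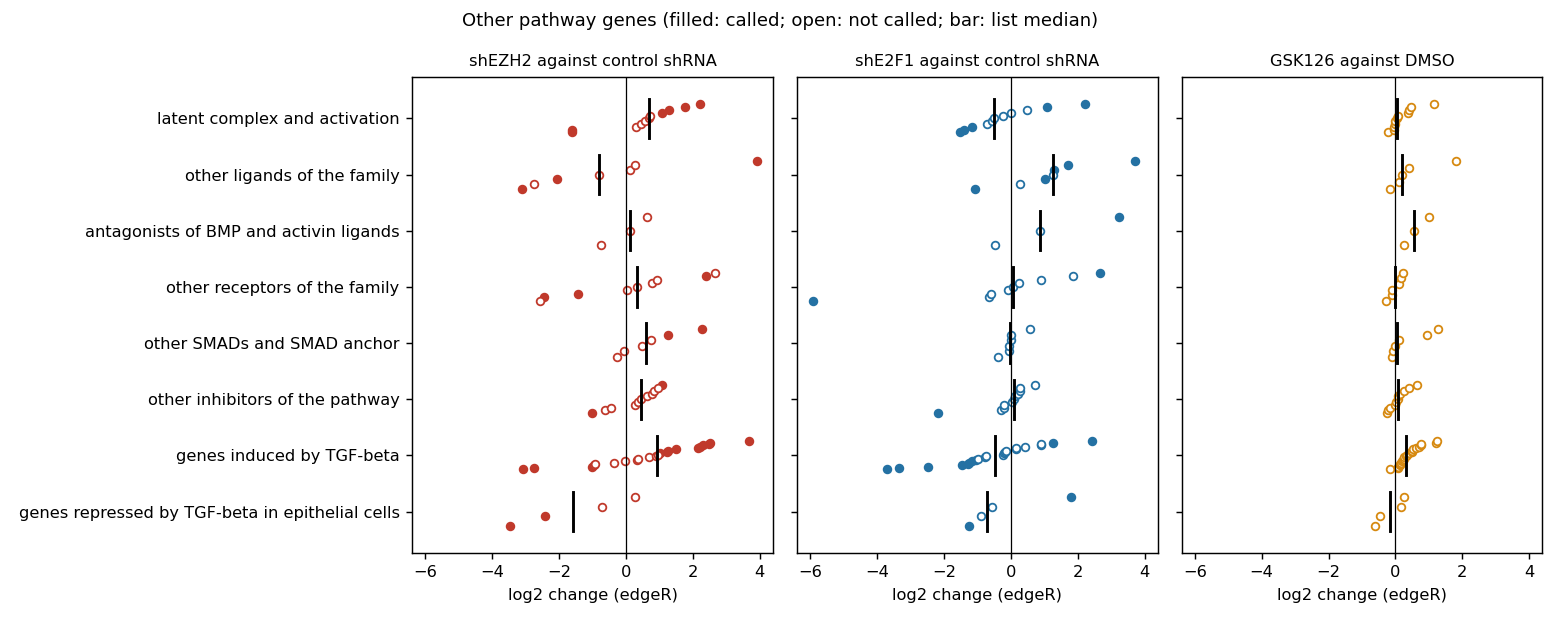
The log2 change from edgeR (x axis) of the tested genes of 8 pathway lists (rows) in shEZH2 and shE2F1 against control shRNA and GSK126 against DMSO; filled points passed the test, open points did not, and bars are list medians. Genes induced by TGF-beta have a median of 0.93 in shEZH2, -0.48 in shE2F1 and 0.32 under GSK126.

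The genes whose log2 CPM ran most like those called in a knockdown, over the 10 libraries, were found by Pearson r among genes with a mean of at least 100 counts. TGFB1I1 was most like FLOT1 (r = 0.9984), SPOCD1 (0.9972) and GGCX (0.9929). TGFBR3 was most like AAK1 (0.9869), MAP3K1 (0.9839) and HPS5 (0.9836), TGFBR1 like MAGI1 (0.9837), TMEM170B (0.9811) and USP49 (0.9802), and SMAD7 like FBXO7 (0.9836), FKBP1A (0.9818) and URGCP (0.9809). TGFB3 was most like GPCPD1 (0.9783), CBR4 (0.9732) and TTC33 (0.9695). These are the highest of 10826 or 10827 values, the libraries share groups and depth, and no test was made.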

How the data were processed

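RNA was sequenced from MDA-MB-231 cells with a strand-specific poly(A) kit, and the authors aligned reads to GRCh38 with STAR (2.7.2b per the submitters' processing notes; the methods give another version) and quantified Ensembl 108 genes with RSEM 1.3.1. The deposited values are expected counts and TPM, both made by the authors. Of 18 records, 8 repeat another value for value and were counted once, leaving 10 libraries, 2 per group. Expected counts were rounded and tested with edgeR 4.0.16 (R 4.3.3): low counts filtered by filterByExpr, TMM scaling, the quasi-likelihood test and Benjamini-Hochberg adjustment over all genes. Knockdowns shared a fit of 6 libraries, GSK126 and DMSO a fit of 4, and the difference of effects a fit of 10. A gene passed at adjusted p under 0.01 and more than 2-fold. CPM are TMM-scaled over all libraries. Each standard error came from the log2 change and its F statistic. Totals ran from 13198932 to 20055550 counts, so a count of 0 allows up to 0.227 CPM, for counting error only. Gene names came from GENCODE 44, in which 62625 of 62703 genes were found.

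Alternatives were DESeq2 1.42.0, its size factors, other filters, an effective-length offset, correction for GC content and length, the replicate number as a block, other sets of libraries and leaving out each library. Besides the 10 genes and the hairpin targets, up to 3 called genes per direction were named from each pathway list, by size of change among genes with a mean of at least 100 counts. A gene that this rule named is not reported here. The 10 genes and the lists were chosen with earlier results of these data known. The fits were tested on simulated data.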

Additional observations from a re-analysis of the deposited data

Results flagged for a closer look

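For 4 genes a change in shEZH2 was found that differed from the change under GSK126, tested as the difference of the 2 log2 changes over 10 libraries with edgeR. The difference was 1.24 for TGFBR1, 1.07 for TGFBR3, 1.45 for SMAD7 and -2.42 for TGFB1I1. With the GC content and length correction TGFBR1 (0.95) and TGFBR3 (0.84) no longer passed, and TGFB3 did (2.37, edgeR adjusted p 0.00842). Hairpin and inhibitor experiments also differ in virus, puromycin and controls, and these cannot be told apart.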

How the results depend on the processing

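Each group held 2 libraries, so leaving out 1 leaves a lone library that is assumed to vary like the other groups, and TGFB3, at 10 to 53 counts, is limited by depth. Counts of the 10 genes called in shEZH2 went from 5 to 8 with adjusted p under 0.05 and no fold, and to 3 with the GC content and length correction, with or without the replicate block. Those in shE2F1 went from 2 to 5 with no fold. In shEZH2 against shE2F1 they went from 2 to 6 with no fold, to 1 with the GC correction, with or without the block, and over 1 to 3 leaving out a library. For the difference between shEZH2 and GSK126 they went from 4 to 7 with no fold, and over 1 to 6 leaving out a library, and were 3 with the GC correction. Where no value shows it, the cause was not tested.

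The labels do not say what a replicate number marks, and with 2 pairs a comparison the main tests do not use it. Same-numbered deviations correlated at 0.0588, 0.0445 and 0.2239 among the knockdown groups and at 0.6248 between DMSO and GSK126, a hint from the data that the numbers pair libraries in the drug experiment. With the replicate block the counts were 5, 2, 2 and 0 in the 4 comparisons and 5 for the difference, where TGFB3 passed (2.20, edgeR adjusted p 0.00871). Over all genes, GSK126 calls went from 0 to 68 with the block, 86 with block and GC correction, 10 with DESeq2 and 37 to 43 leaving out a library. The pathway genes called under GSK126 with the block were INHBA (1.79), TNC (1.21), FST (1.00), ADAM12 (1.25) and ITGB8 (1.14).

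Directions turned under some settings, all for changes that had not passed. With the GC correction, with or without the block, TGFB1 stood at 0.17 in shEZH2, 0.27 against shE2F1 and 0.21 in the difference from GSK126, TGFB1I1 at 0.10 in shEZH2 against shE2F1, and TGFB3 at -0.03 under GSK126. With the effective-length offset SMAD7 stood at -0.04 in shE2F1, TGFB1I1 at 0.01 and TGFBR3 at 0.09 in shEZH2 against shE2F1, and under GSK126 TGFB3 stood at -0.01, SMAD3 at 0.04, SMAD7 at -0.09 and SKIL at 0.03. TGFB2 stood at 0.00 in shEZH2 against shE2F1 with DESeq2, and SMAD3 under GSK126 at 0.01 with a mean of at least 50 counts and 0.00 in a fit of all 10 libraries. Leaving out a library, log2 changes in shE2F1 ranged from -0.23 to 0.03 for TGFB1, -0.04 to 0.27 for SMAD7 and -0.04 to 0.16 for SKIL. In shEZH2 against shE2F1 they ranged from -0.04 to 0.01 for TGFB2, -0.15 to 0.10 for TGFBR3 and -0.31 to 0.08 for TGFB1I1. Under GSK126 they ranged from -0.06 to 0.05 for TGFB1, -0.22 to 0.39 for TGFB2, -0.49 to 0.39 for TGFB3, -0.18 to 0.32 for TGFBR1, -0.27 to 0.34 for TGFBR3, -0.07 to 0.07 for SMAD3, -0.19 to 0.48 for SMAD7, -0.43 to 0.25 for SKIL and -0.01 to 0.10 for TGFB1I1. For TGFB2 the difference between shEZH2 and GSK126 ranged from -0.56 to 0.03.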
